A study of Homo sapiens with 6 samples.

Results

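The proteasome subunit genes of a human breast cancer cell line were followed on arrays that set cells with an siRNA against parathyroid hormone-related protein (siPTHrP) beside cells with a control siRNA against luciferase (siLuc). The members were all probe sets that the array's annotation assigns to a single gene with a symbol of PSMA, PSMB, PSMC, PSMD or PSME and a number. This gave 58 probe sets of 22283 on the array, for 36 genes. Symbols with further letters after the number, which name partner proteins and not subunits, were left out with their 3 probe sets. Another 5 probe sets list a member beside a second gene and were left out too, so PSMA6 and PSME2, which had no other probe set, were not analysed here. PSMA8, PSMB11, PSMC5, PSMD7 and PSMD13 were not analysed here either.

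The cells were MDA-MB-231, an established human line derived from a breast adenocarcinoma, and nothing in the labels describes a further genetic change. They received 1 of the siRNAs by electroporation and were harvested after 3 days, in 3 independent transfection experiments. Each experiment gave 1 siLuc and 1 siPTHrP RNA, each hybridised to its own Affymetrix HG-U133A array, so each group held 3 arrays. The siLuc array without a number in its labels was taken as experiment 1 by elimination. The siPTHrP and siLuc arrays of the same experiment were compared with each other, which asks which transcripts differ after the knockdown. The targeted transcript was not analysed here, so the knockdown that would check the labels was not checked. Each culture is a bulk sample, in which fewer cells of a kind and less RNA per cell cannot be told apart.

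The proteasome is the large protease that breaks down proteins tagged with ubiquitin. Its core particle is a barrel of outer alpha rings, which form the gate, and inner beta rings, which hold the active sites. A regulatory particle caps the barrel: its base unfolds substrates with a ring of ATPases, and its lid removes ubiquitin chains. Cells exposed to interferon gamma exchange the catalytic beta subunits for those of the immunoproteasome, which favours peptides that fit MHC class I molecules. The subunits are made in fixed proportions, and transcription factors of the NRF family, such as NFE2L1, are known to raise most of their genes together when proteasome activity is short.

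1 control array, that of experiment 1, resembled the rest least. Over all probe sets its rank correlation (Spearman) with them was 0.716 to 0.725, against 0.882 to 0.960 among those 5. Over the 36 proteasome genes the same correlations were 0.862 to 0.934 and 0.910 to 0.961. Signals are linear MAS5 intensities, and the median signal of the proteasome genes was 5108 on this array and 6334 to 6909 on the others. Over all probe sets other than controls the order was the opposite, with a median signal of 885 on this array and 556 to 657 on the others. The spiked hybridisation controls of this array had a geometric mean of 273057, against 10838 to 41428 on the other 5 arrays. Of the 8 MDA-MB-231 markers, 7 were above the signal filter described next, among them VIM, CD44 and AXL, while S100A4 was not. The summed signal of the 7 luminal and epithelial markers was 3188 to 6402 on siLuc arrays and 3031 to 4606 on siPTHrP arrays. That of the 3 leukocyte markers measured was 925 to 2731 and 793 to 1123, and 4 of the 7 luminal markers (ESR1, ERBB2, GATA3 and KRT19) and 1 of the 3 leukocyte markers (CD3E) were above the filter, while CDH1, EPCAM, PGR, PTPRC and CD14 were under it. The endothelial markers summed to 1269 to 3705 and 556 to 1391, and the fibroblast markers to 961 to 2147 and 409 to 988, and 1 of 3 in each list was above the filter, PECAM1 and DCN. The upper ends of the siLuc ranges of the luminal, leukocyte, endothelial and fibroblast sums all came from the siLuc array of experiment 1. The part of these differences between arrays in the results below was not tested.

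Proteasome transcripts as a family differed little between siPTHrP and siLuc, and no member passed the test over all probe sets. Values were taken as log2(signal + 16), and a probe set was tested where their mean over the 6 arrays reached the 40th percentile, a signal of about 376. All 36 genes and 55 of the 58 probe sets passed this filter. In limma, fitted with a term for the experiment, 0 of the 55 had a Benjamini-Hochberg adjusted p under 0.05, where 0% of all 13329 probe sets tested did. The smallest adjusted p among them was 0.321. Each gene is given below by its brightest probe set, a log2 fold change is siPTHrP over siLuc on the scale just named, and every fold given is the fitted one on that scale, not a ratio of means. At an unadjusted limma p under 0.05, 4 of the 36 genes (11.1%) were higher with siPTHrP and 1 (2.78%) was lower. Among all 8120 named genes tested these shares were 7.06% and 5.57%. Over probe sets the members gave 5 higher and 3 lower, or 9.09% and 5.45%, against 6.77% and 5.36% of all probe sets tested. These shares lie near the background.

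The differences were small and, for signals this bright, had a narrow fitted error. The log2 fold change was above 0 in 27 of the 36 genes, with a median of 0.14, or 1.10-fold. Of all named genes tested 52.7% were above 0, with a median of 0.033. That excess depended on the scaling, since after quantile normalization 19 of 36 were above 0 with a median of 0.0071, below the 0.089 of all probe sets. With arrays centred on their median, 31 of 36 were above 0, with a median of 0.22 where all probe sets had 0.11. Above the median of all probe sets lay 24 of 36 both in the main fit and after this centring, and 13 of 36 after quantile normalization. Without experiment 1, 22 of 36 were above 0 and 26 above the median of all probe sets, at a median of 0.062 against -0.029. Without its siLuc array alone, 21 of 36 were above 0 and 23 above the median of all probe sets, at 0.056 against -0.025. The median standard error of the member genes was 0.20, against 0.33 for all named genes tested. The 95% interval of 34 of the 36 (94.4%) lay within 2-fold in either direction, which 41.6% of all named genes tested did. The 2 exceptions were PSMC6 and PSMD10. These errors rest on a limma fit that lets the variance follow the signal. Without that trend the SE was 0.24 instead of 0.16 for PSMB5 and 0.26 instead of 0.18 for PSMD4. The count within 2-fold was not repeated without it.

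**Figure D1:**
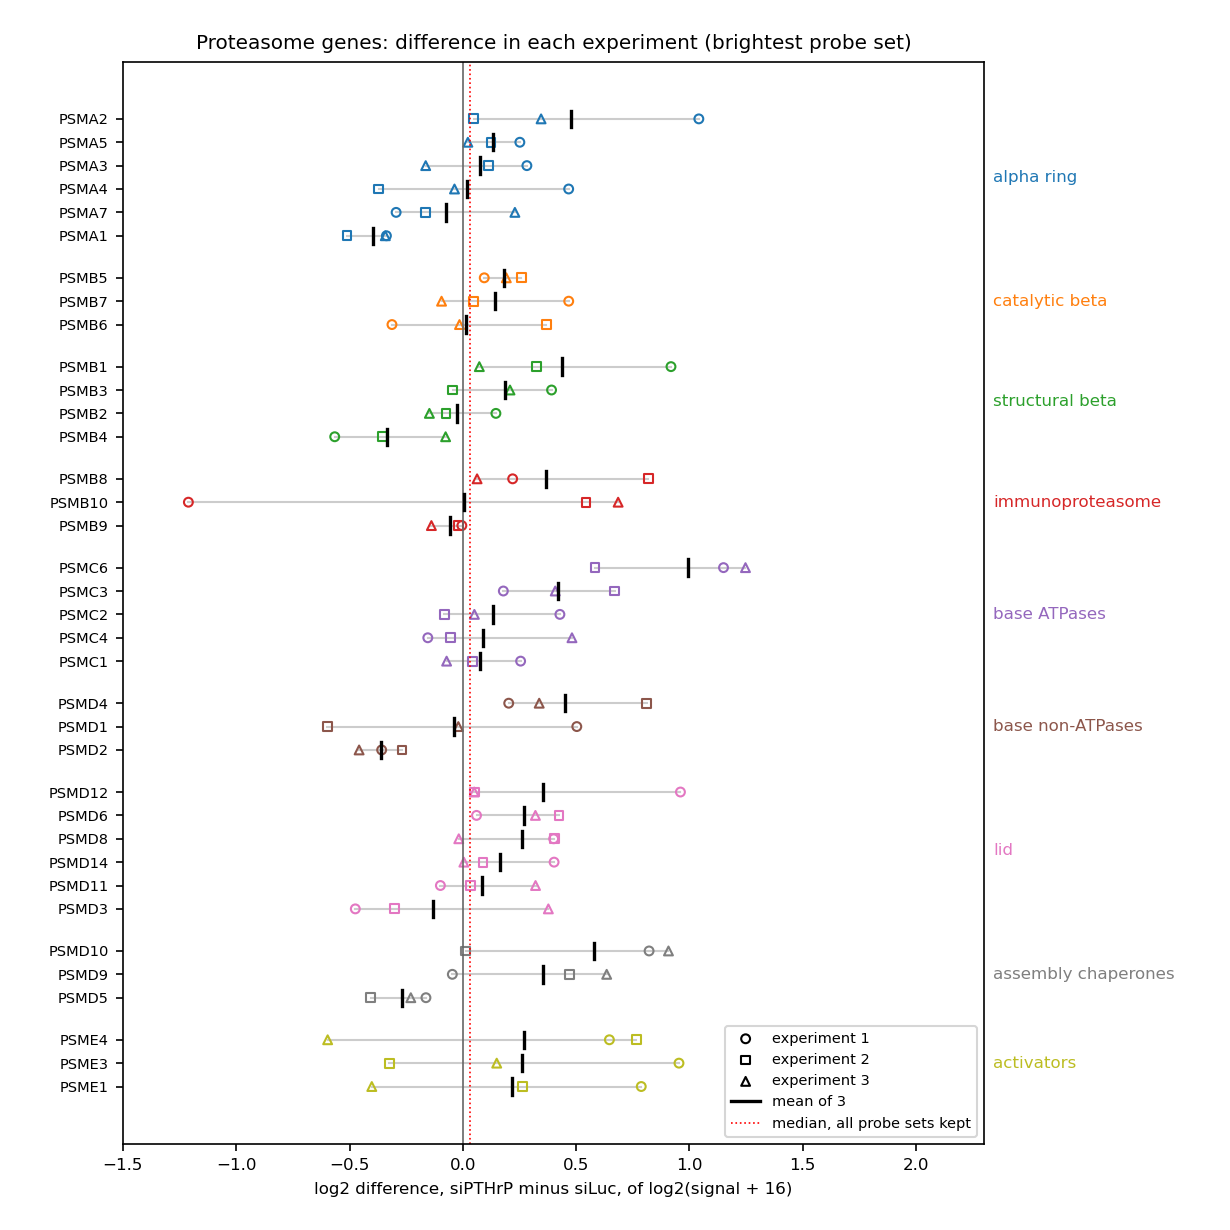
Log2 difference between the siPTHrP and the siLuc array of each experiment for the 36 proteasome genes, by role (open symbols, 1 per experiment; black bars, mean of 3; dotted red line, median of all probe sets tested, 0.030). Most genes straddle 0, PSMC6 lies above 0.58 in every experiment, and PSMB10 ranges from -1.21 to 0.69.

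The 3 experiments did not show the same pattern of differences among the subunits. The median over the 36 genes was 0.24, 0.047 and 0.050 in experiments 1, 2 and 3, with 24, 22 and 21 genes above 0. All named genes tested had medians of 0.088, -0.037 and -0.0035. Across the 36 genes the differences of experiments 1 and 2 correlated at 0.13, those of 1 and 3 at 0.064 and those of 2 and 3 at 0.29. Across all 8120 named genes tested these were 0.25, 0.14 and 0.24. Genes are not independent replicates, and these correlations are a description. The sign was the same in all 3 experiments for 12 genes above 0 (33.3%) and 5 below (13.9%), against 20.2% and 19.0% of all named genes tested. The arrays of the groups did not overlap for 2 genes on the high side, PSMA2 and PSMC6, and for 2 on the low side, PSMD2 and PSMD5. That is 5.56% each way, where all named genes tested gave 9.56% and 10.0%.

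Upstream sequences are shown for the 3 genes with an unadjusted p under 0.05 on their brightest probe set that have an entry in the promoter table, so that the regions can be read beside their values. The PSMC6 stretch is chr14:52706950-52707199 on the plus strand, that of PSMD10 chrX:108091543-108091792 on the minus strand and that of PSMA1 chr11:14520387-14520636 on the minus strand, from RefSeq on GRCh38.p14. Each gives the 250 bases before the annotated start, 5′ to 3′, and capitals mark matches to the motifs named next.
PSMC6: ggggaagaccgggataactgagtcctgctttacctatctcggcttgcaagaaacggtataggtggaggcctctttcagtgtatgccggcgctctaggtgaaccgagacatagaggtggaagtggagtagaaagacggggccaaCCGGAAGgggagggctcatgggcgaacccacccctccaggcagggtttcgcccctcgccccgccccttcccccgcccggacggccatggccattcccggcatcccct
PSMD10: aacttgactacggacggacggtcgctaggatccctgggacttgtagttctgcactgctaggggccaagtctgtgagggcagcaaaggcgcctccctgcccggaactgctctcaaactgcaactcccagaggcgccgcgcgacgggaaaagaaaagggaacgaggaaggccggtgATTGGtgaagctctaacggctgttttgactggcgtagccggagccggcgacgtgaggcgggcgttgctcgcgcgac
PSMA1: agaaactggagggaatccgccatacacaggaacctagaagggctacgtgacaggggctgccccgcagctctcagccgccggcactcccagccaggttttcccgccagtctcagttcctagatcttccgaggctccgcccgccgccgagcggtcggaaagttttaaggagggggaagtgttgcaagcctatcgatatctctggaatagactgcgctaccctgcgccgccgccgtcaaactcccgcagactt

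Promoter entries were found for 31 of the 36 genes, 36 entries in all, and PSMA7, PSMB1, PSMB6, PSMB7 and PSMD4 had none. The core of the antioxidant response element, TGACNNNGC, which NRF factors bind, was searched on both strands and lay in 9 of the 36 (25%), against 10.9% of all 35116 entries of the same length. Genes with it had a median log2 fold change of 0.19, with 6 of 9 above 0, and the 22 without it had 0.13, with 17 above 0. The CCAAT box was in 41.7% of member entries and 32.0% of all. The ETS core CCGGAAG was in 19.4% and 8.52%. The interferon element core, GAAA followed by any 2 bases and GAAA, was in 8.33% and 3.02%, in PSMA4, PSMB4 and PSMB10. Of the motifs shown in capitals, PSMC6 carries an ETS core 101 to 107 bases before its start, and its log2 fold change was 0.99. PSMD10 carries a CCAAT box, read on the other strand, 72 to 76 bases before its start. PSMA1 has no match in this window. The 7 genes with an ETS core were all above 0, with a median of 0.27, and of the 24 without it 16 were above 0, with a median of 0.081. A match is a description of letters and was not tested against the expression values.

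The alpha ring, whose subunits shape the entry to the barrel, had 4 of 6 genes above 0 and a median log2 fold change of 0.049. With quantile normalization 1 of 6 was above 0. Without experiment 1, 3 of 6 were above 0 with a median of 0.0040, without its siLuc array alone the median was -0.038, and without experiments 2 or 3 it was 0.098 or 0.12. PSMA1 was the member of the ring with the smallest p, on the low side: its signal was 14356, 18155 and 20794 with siLuc and 11358, 12730 and 16398 with siPTHrP. Each siPTHrP array was below the siLuc array of its experiment, although the groups overlap. The mean was 17768 ± 3237 with siLuc and 13495 ± 2606 with siPTHrP (SD, n = 3). The fitted log2 fold change was -0.40 (SE 0.16, limma adjusted p = 0.394). The other PSMA1 probe sets gave -0.22 and 0.062, so the low value was not shared by all 3.

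PSMA2 had 3172, 5756 and 4878 with siLuc and 6545, 5953 and 6201 with siPTHrP, with every siPTHrP array above every siLuc array, at 1.39-fold (limma adjusted p = 0.428). Its differences were 1.04, 0.048 and 0.35 in experiments 1, 2 and 3, with the largest in experiment 1, and without that experiment the log2 fold change was 0.20. A dimmer PSMA2 probe set gave -0.043 with an SE of 0.66. PSMA3 stood at 1.06-fold, PSMA4 at 1.01-fold, PSMA5 at 1.1-fold and PSMA7 at 0.948-fold, each with an adjusted p between 0.735 and 0.975. For PSMA7 a dimmer probe set was lower at 0.652-fold (limma adjusted p = 0.401).

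The structural subunits of the beta ring, which carry no active site, had 2 of 4 genes above 0 and a median log2 fold change of 0.080, and they pointed in different directions. The median turned to -0.015 without experiment 1, -0.084 without its siLuc array alone and -0.068 with quantile normalization, and was 0.15 without experiment 2. PSMB1 was higher with siPTHrP on both of its bright probe sets. On the brighter it had 8552, 13279 and 12530 with siLuc and 16180, 16639 and 13178 with siPTHrP, a fitted log2 difference of 0.44 (SE 0.19, limma adjusted p = 0.41). On the other it had 9117, 8221 and 9467 with siLuc and 11829, 10771 and 11073 with siPTHrP, with no overlap of the groups, at 1.26-fold (adjusted p = 0.438 in limma). Without experiment 1 the log2 fold change of the brighter one was 0.20. The remaining PSMB1 probe set, at a log2 difference of -1.25, was under the filter, with signals of 26 to 357, and was not tested.

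PSMB4, which joins the beta ring late in assembly, was lower on both of its probe sets, at 0.794-fold and 0.833-fold (adjusted p = 0.445 and 0.507 in limma). Its signal on the brighter was 17708, 22931 and 21570 with siLuc and 11960, 17910 and 20460 with siPTHrP. Every siPTHrP array was below its siLuc partner, but only on the dimmer probe set were the groups apart. PSMB3 stood at 1.14-fold (adjusted p = 0.648 in limma).

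PSMB2 gave the smallest p of all member probe sets, on a probe set that is not its brightest and was singled out after its values were seen. That probe set, of the kind marked _x_at for possible cross-hybridisation, had 4418, 4765 and 5156 with siLuc and 2549, 2288 and 3069 with siPTHrP. Each siPTHrP array was below each siLuc array, at 0.55-fold (log2 fold change -0.86, SE 0.20, limma adjusted p = 0.321). The brighter PSMB2 probe set stood at 0.983-fold, with 6806, 10556 and 10275 with siLuc and 7532, 10026 and 9273 with siPTHrP, and its groups overlap. On the log2 scale the interval of the first was -1.32 to -0.41 and that of the second -0.40 to 0.35, which just fail to overlap. With estimated array weights the first passed the threshold (adjusted p = 0.0260 in limma), and the 13 alternatives gave adjusted p-values between 0.0260 and 0.532. These weights were the same for both arrays of an experiment, at 0.39, 2.23 and 1.16 in experiments 1, 2 and 3. The differences of that probe set were -0.79, -1.05 and -0.75 in the same order.

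**Figure D2:**
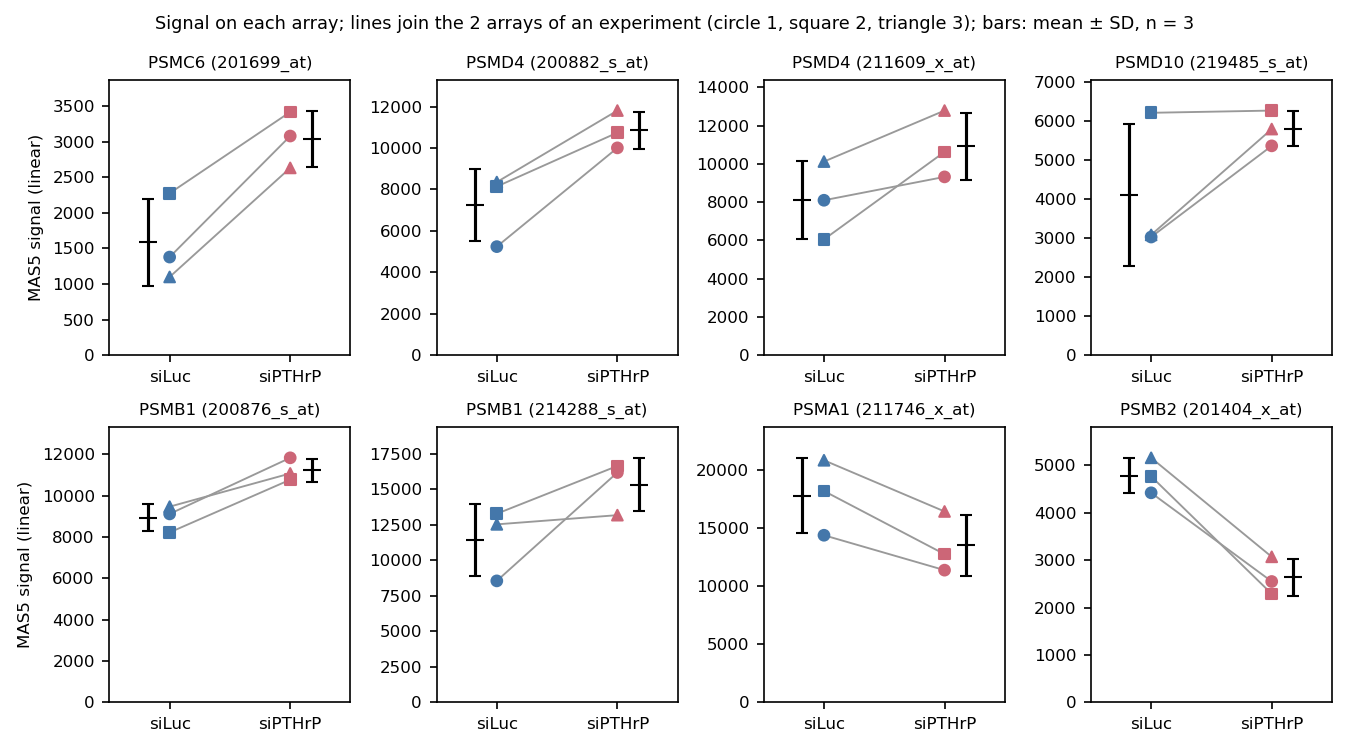
Linear MAS5 signal on each of the 6 arrays for 8 probe sets of 6 genes (axes start at 0; symbols mark experiments 1 to 3, lines join arrays of an experiment, bars give mean ± SD, n = 3). PSMC6 is higher with siPTHrP in every experiment, and the PSMB2 probe set shown is lower in every experiment.

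None of the constitutive catalytic subunits passed the limma test. PSMB5, which has the chymotrypsin-like activity and is the target of bortezomib, had 10503, 11351 and 12765 with siLuc and 11214, 13576 and 14582 with siPTHrP. That was 1.13-fold, higher in 3 of 3 experiments by 0.094, 0.26 and 0.19 (SE 0.16, adjusted p = 0.622 in limma). The groups overlap, and its 95% interval was -0.17 to 0.53 on the log2 scale. PSMB6, with the caspase-like site, had 12913, 9921 and 14418 with siLuc and 10392, 12802 and 14270 with siPTHrP. That was 1.01-fold, with a log2 interval of -0.39 to 0.42. PSMB7, with the trypsin-like site, had 9534, 13996 and 17284 with siLuc and 13186, 14452 and 16192 with siPTHrP. That was 1.1-fold, with a log2 interval of -0.25 to 0.53. The adjusted p-values of PSMB6 and PSMB7 were 0.98 and 0.74 in limma. PSMB6 was higher in 1 of 3 experiments and PSMB7 in 2 of 3. With quantile normalization the log2 fold changes of PSMB6 and PSMB7 turned to -0.17 and -0.012.

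The immunoproteasome subunits, which take the places of PSMB5, PSMB6 and PSMB7, did not share a direction. PSMB8 had 2526, 2710 and 3112 with siLuc and 2944, 4791 and 3251 with siPTHrP, which is 1.29-fold (SE 0.23 on the log2 scale, adjusted p = 0.511 in limma). It was higher in 3 of 3 experiments, by 0.22, 0.82 and 0.063, with the largest difference in experiment 2. PSMB9, encoded beside PSMB8 and the peptide transporter TAP1, had 2103, 3296 and 2501 with siLuc and 2096, 3249 and 2270 with siPTHrP, or 0.963-fold. It was lower in 3 of 3 experiments, with differences of -0.0045, -0.021 and -0.14, and its groups overlap. PSMB10 had 2439, 860 and 660 with siLuc and 1044, 1261 and 1071 with siPTHrP. The siLuc array of experiment 1 was the highest of the 6 and the other siLuc arrays were the lowest. Its differences were -1.21, 0.54 and 0.69, so its log2 fold change of 0.0059 (SE 0.44) averages opposite signs, and it was 0.61 without experiment 1 (adjusted p = 0.45 in limma). The median of the class was 0.0059, and 0.44 without experiment 1.

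Relative to the subunit it replaces, each immunoproteasome gene was again without a common shift. The difference of PSMB8 exceeded that of PSMB5 by 0.13, 0.56 and -0.13 log2 units in experiments 1, 2 and 3. For PSMB9 over PSMB6 these were 0.31, -0.39 and -0.12, and for PSMB10 over PSMB7 they were -1.68, 0.50 and 0.78. None of the 3 pairs kept its sign in all 3 experiments, and these ratios were not tested.

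**Figure D3:**
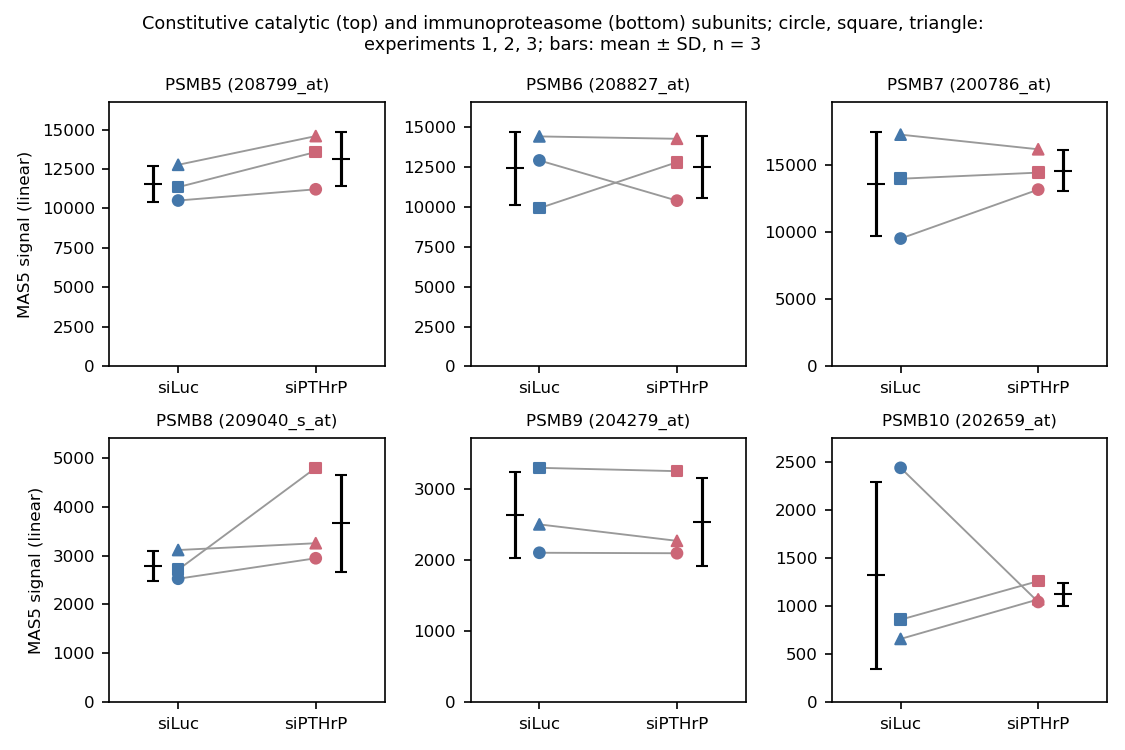
Linear MAS5 signal of the constitutive catalytic subunits (top) and of the immunoproteasome subunits (bottom) on each array (axes start at 0; symbols mark experiments 1 to 3, bars give mean ± SD, n = 3). The groups overlap for all 6 genes, and the siLuc array of experiment 1 is the highest point for PSMB10, at 2439.

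The base ATPases, which unfold substrates and open the gate, were above 0 in 5 of 5 genes, with a median log2 fold change of 0.13. With quantile normalization 4 of 5 were above 0, and without experiment 1 it was 3 of 5, with a median of 0.21. PSMC6 had the largest difference of the 36 genes by brightest probe set. Its signal was 1378, 2275 and 1099 with siLuc and 3079, 3417 and 2631 with siPTHrP. Every siPTHrP array was above every siLuc array. The mean was 1584 ± 614 with siLuc and 3042 ± 394 with siPTHrP (SD, n = 3). The fitted difference was 1.99-fold. The log2 fold change was 0.99 (SE 0.26, interval 0.41 to 1.58, limma adjusted p = 0.324), with 1.15, 0.58 and 1.25 in experiments 1, 2 and 3. Over 14 alternatives it stayed between 0.85 and 1.20, while its adjusted p-values lay between 0.0836 and 0.532 and never passed. It has 1 probe set on the array, so no second measurement bears on it.

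PSMC3 was higher in 3 of 3 experiments, by 0.18, 0.67 and 0.41, and stood at 1.34-fold (adjusted p = 0.424 in limma). Its signals were 4055, 3409 and 4712 with siLuc and 4592, 5437 and 6256 with siPTHrP, with overlap. PSMC1 stood at 1.05-fold, PSMC2 at 1.1-fold and PSMC4 at 1.06-fold. A dimmer PSMC2 probe set gave 1.5-fold with an SE of 0.43 on the log2 scale. Adjusted p-values of these 3 genes lay between 0.785 and 0.875.

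Among the base subunits that are not ATPases, PSMD4 and PSMD2 pointed in opposite directions, and the median of the 3 genes was -0.039, which was -0.31 without experiment 1 and 0.24 without experiment 2. PSMD4, a ubiquitin receptor, was higher with siPTHrP on each of its 3 probe sets above the filter. On the brightest it had 8097, 6050 and 10119 with siLuc and 9319, 10627 and 12785 with siPTHrP, a fitted log2 difference of 0.45 (SE 0.18, limma adjusted p = 0.397). On the next it had 5239, 8140 and 8354 with siLuc and 10006, 10740 and 11806 with siPTHrP, with the groups apart, at 1.53-fold (limma adjusted p = 0.332). The dimmest of the 3 gave 1.32-fold, also with the groups apart (adjusted p = 0.41 in limma). All 3 were higher in 3 of 3 experiments. Another, at a log2 difference of -1.40, was under the filter, with signals of 125 to 228 for siLuc and 31 to 103 for siPTHrP, and was not tested. These probe sets report 1 gene on the same 6 RNAs and are not replicates.

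PSMD2, a scaffold that binds ubiquitin-like domains of shuttle proteins, had 9453, 8142 and 10584 with siLuc and 7370, 6757 and 7701 with siPTHrP. The groups did not overlap, with differences of -0.36, -0.27 and -0.46 in experiments 1, 2 and 3 and a ratio of 0.778-fold (limma adjusted p = 0.419). PSMD1, the other large scaffold of the base, stood at 0.973-fold and 1.05-fold on its 2 probe sets. Its differences on the brighter were 0.50, -0.60 and -0.02, which span both signs. Its signals were 2717, 6457 and 4200 with siLuc and 3857, 4257 and 4142 with siPTHrP, and the siPTHrP arrays all lay inside the siLuc range.

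The lid, which holds the deubiquitinase PSMD14, had 5 of 6 genes above 0 and a median log2 fold change of 0.21. With quantile normalization 3 of 6 were above 0, with a median of 0.046. Without experiment 1, 6 of 6 were above 0 with a median of 0.11. PSMD6 had the smallest p of the class: its signal was 13229, 13784 and 15934 with siLuc and 13793, 18505 and 19897 with siPTHrP, at 1.2-fold (SE 0.16 on the log2 scale, limma adjusted p = 0.498). Each experiment was higher, by 0.06, 0.42 and 0.32, with overlap of the groups. PSMD12 stood at 1.28-fold and 1.24-fold on its probe sets, and its differences on the brighter were 0.96, 0.052 and 0.05, with the largest in experiment 1. PSMD8 stood at 1.2-fold, PSMD14 at 1.12-fold and PSMD11 at 1.06-fold. PSMD3 was the member below 0, at 0.912-fold, and was lower in experiments 1 and 2 and higher in experiment 3. Adjusted p-values of the class ran from 0.498 to 0.871.

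The chaperones that help assemble the base and then leave it had 2 of 3 genes above 0 and a median of 0.35. PSMD10, also called gankyrin and known as an oncoprotein that binds the retinoblastoma protein, had 3027, 6210 and 3081 with siLuc and 5363, 6267 and 5793 with siPTHrP. In experiments 1 and 3 the siPTHrP signal was well above its partner, and in experiment 2 both were high, with differences of 0.82, 0.013 and 0.91. The log2 fold change was 0.58 (SE 0.22, limma adjusted p = 0.394). PSMD9 stood at 1.28-fold, with -0.046, 0.47 and 0.63 in the 3 experiments. PSMD5 stood at 0.831-fold, and its siPTHrP signals of 2109, 2182 and 2087 were all under the siLuc signals of 2363, 2899 and 2450 (adjusted p = 0.628 in limma).

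The activators, which open the core without the regulatory particle, were above 0 in 3 of 3 genes on average and in no gene in every experiment. Their median was 0.26, and without experiment 1 it was -0.070. PSME1, which forms the interferon-inducible cap with PSME2, had 6642, 11176 and 17720 with siLuc and 11474, 13409 and 13407 with siPTHrP, and its siLuc arrays spread over a wider range than its siPTHrP arrays. Its differences were 0.79, 0.26 and -0.40 (adjusted p = 0.685 in limma). PSME3, a nuclear activator, had 2756, 5398 and 4357 with siLuc and 5353, 4308 and 4834 with siPTHrP on its brightest probe set, or 1.2-fold (SE 0.25 on the log2 scale, adjusted p = 0.667 in limma). The other 3 PSME3 probe sets were below 1, at 0.935-fold, 0.782-fold and 0.688-fold. Without experiment 1 the brightest also turned, to a log2 fold change of -0.087. PSME4, a large activator of the nucleus, had 2425, 2528 and 4146 with siLuc and 3806, 4308 and 2736 with siPTHrP, with differences of 0.65, 0.77 and -0.60 (adjusted p = 0.693 in limma). Its other probe sets gave 1.04-fold and 0.976-fold.

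Probe sets of 1 gene did not always share a sign. Of 15 genes with several, 7 had the same sign on all of their probe sets, and in 3 of the other 8 (PSMB1, PSMD4 and PSMD5) the odd probe set was under the filter. Higher values were shared by all tested probe sets for PSMB1, PSMC2, PSMD4, PSMD9, PSMD11 and PSMD12. Lower values were shared for PSMA7, PSMB2 and PSMB4.

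**Figure D4:**
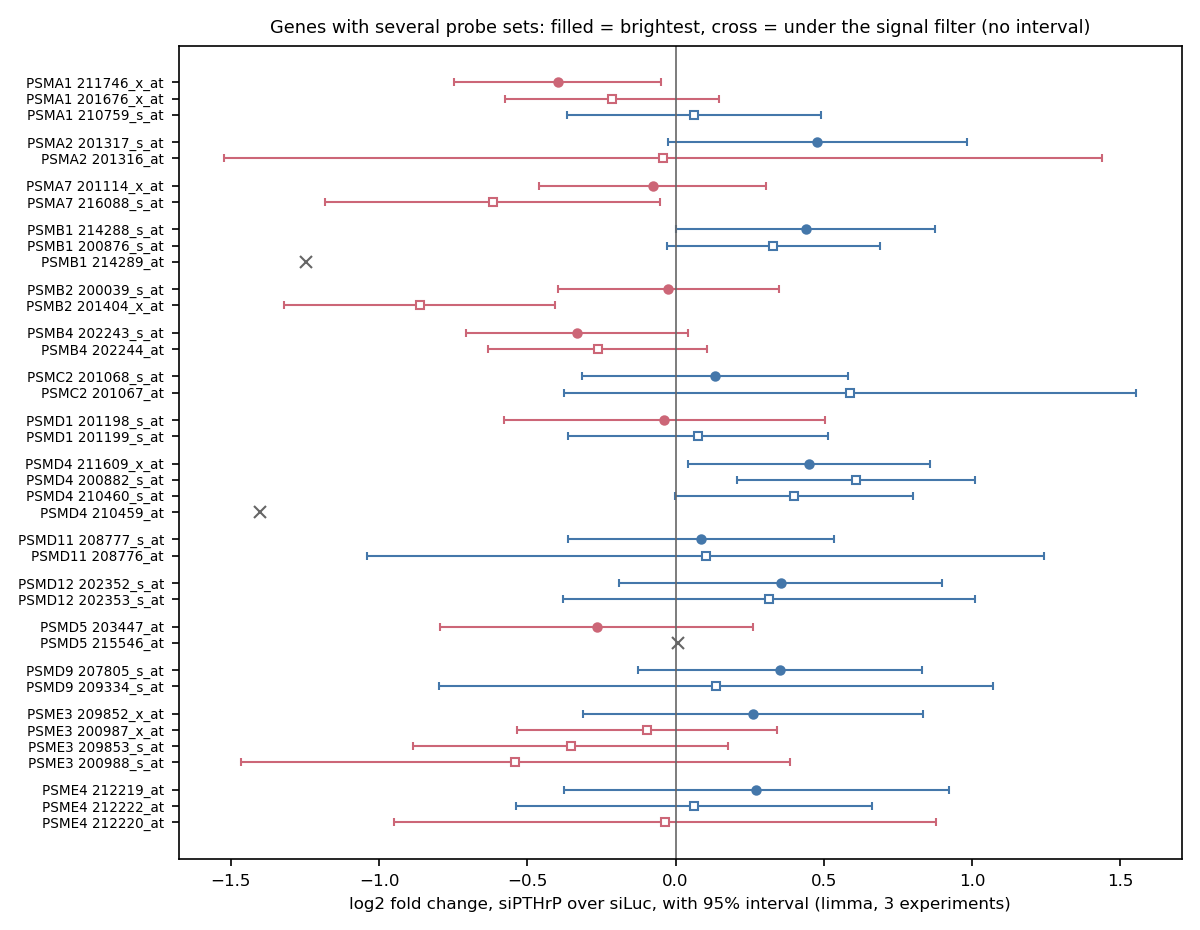
Log2 fold change with its 95% limma interval for each probe set of the 15 genes that have several (filled circles, brightest probe set; open squares, others; crosses, under the filter and untested; blue above 0, red below). The intervals of the PSMB2 probe sets do not overlap, the 3 tested PSMD4 probe sets lie above 0, and PSME3 has 1 probe set above 0 and 3 below.

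Genes that assemble, regulate or feed the proteasome were taken from lists of the pathway, and 0 of their tested genes passed over all probe sets. Assembly factors and associated proteins were above 0 in 12 of 13 genes measured of 15 listed, with a median log2 fold change of 0.32. AKIRIN2, the gene below 0, was under the filter. At an unadjusted limma p under 0.05, 2 of the 12 tested (16.7%) were higher and 0 lower, against 7.06% and 5.57% of all named genes tested. ECPAS, a proteasome adaptor, stood at 1.76-fold (adjusted p = 0.362 in limma) and PSMF1, an inhibitor of the core particle, at 1.56-fold (adjusted p = 0.398 in limma). The differences of ECPAS were 1.57, 0.42 and 0.46 in experiments 1, 2 and 3, and its log2 fold change was 0.81, or 0.44 without experiment 1. Those of PSMF1 were 0.94, -0.029 and 1.02, so it was not higher in experiment 2. The deubiquitinases UCHL5 and USP14 stood at 1.41-fold and 1.4-fold. Differences of USP14 were 1.13, -0.026 and 0.35, with the largest in experiment 1. The list kept 12 of 13 above 0 without experiment 1, with a median of 0.22, and gave 11 of 13 and a median of 0.21 with quantile normalization.

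The list of NRF factors and shuttle proteins had 8 of 11 measured genes above 0 of 15 listed, with a median of 0.31, and 0.15 with quantile normalization. Without experiment 2, 6 of 11 were above 0 with a median of 0.16. NFE2L2, the oxidative stress factor, had 3672, 4043 and 3015 with siLuc and 8462, 7632 and 4182 with siPTHrP, with every siPTHrP array above every siLuc array. It stood at 1.82-fold (limma adjusted p = 0.322), with 1.20, 0.91 and 0.47 in experiments 1, 2 and 3. It passed the threshold without experiment 3 (adjusted p = 0.0192 in limma) and with array weights (adjusted p = 0.0397 in limma). NFE2L1, the factor known for proteasome genes, had 8215, 6312 and 9720 with siLuc and 7419, 9153 and 9659 with siPTHrP and stood at 1.09-fold (adjusted p = 0.783 in limma). The shuttle protein RAD23B stood at 1.66-fold (adjusted p = 0.328 in limma) and UBQLN4, of the ubiquilins, at 0.471-fold (adjusted p = 0.332 in limma). The autophagy receptor SQSTM1 stood at 1.26-fold. At an unadjusted limma p under 0.05, 2 of the 11 tested in this list (18.2%) were higher and 1 (9.09%) lower, against 7.06% and 5.57% of all named genes tested.

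Ubiquitin and its activating and conjugating enzymes were above 0 in 5 of 5 measured genes of 12 listed, with a median of 0.30. Without the siLuc array of experiment 1, 4 of 5 were above 0 with a median of 0.14. The conjugating enzymes UBE2K and UBE2N stood at 1.68-fold and 1.4-fold (adjusted p = 0.345 and 0.393 in limma), and these were the 2 of 5 (40%) with an unadjusted p under 0.05, where 7.06% of all named genes tested were higher at that level. The activating enzymes UBA1 and UBA6 stood at 1.19-fold and 1.23-fold. The interferon and antigen presentation list, many of whose genes are known to be induced with the immunoproteasome, had 9 of 13 measured genes above 0 of 16 listed and a median of 0.11. Without experiment 1, 4 of 13 were above 0 and the median was -0.068. Of the 12 tested, 1 (8.33%) was higher and 1 (8.33%) lower at an unadjusted limma p under 0.05, near the 7.06% and 5.57% of all named genes tested. The chaperone CALR stood at 0.625-fold (adjusted p = 0.342 in limma) and passed without experiment 1 (adjusted p = 0.0468 in limma) and with array weights (adjusted p = 0.0146 in limma). HLA-B and HLA-C stood at 1.48-fold and 1.27-fold, on _x_at probe sets of near-identical genes that can share signal. The values of CALR, UBE2N, UBQLN4 and NFE2L1 also come from _x_at probe sets. B2M, the light chain of the HLA molecules, stood at 1.2-fold. TAP1 differed by 2.04, 0.71 and -1.43 in the 3 experiments.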

How the data were processed

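RNeasy total RNA was biotin-labelled, per the labels' protocols. Signal intensities on a linear scale came from MAS5, run by the authors, per the submitters' processing notes, without stated settings. The mean signal after trimming 2% at each end was 1500.4 to 1500.6 on all 6 arrays, and that deposited scaling was kept. The number of arrays limits the precision.

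In R 4.3.3 with limma 3.58.1, 68 control probe sets were dropped and log2(intensity + 16) was fitted for 13329 probe sets at or above the 40th percentile, using lmFit and a trended eBayes. The model held siRNA and experiment, with 2 residual and 7.17 prior degrees of freedom. P-values are two-sided, with Benjamini-Hochberg adjustment over all probe sets tested. Pairing follows the design text, in which a number marks an experiment. Deviations of same-experiment arrays from their group means correlated at -0.012, 0.16 and 0.16 in experiments 1, 2 and 3. For siLuc and siPTHrP arrays of different experiments this was -0.21 to 0.13, so the values show little of the pairing. For the siLuc array titled 3, whose description says 2, the title was used.

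Gene names came from the array's annotation, in which 19071 probe sets list 1 gene, 1043 several and 2169 none, and only the first kind was named. Symbols were updated through RefSeq gene identifiers (GRCh38.p14). The members, lists and tests were chosen with earlier results of these data known. Full statistics go to genes with an unadjusted p under 0.05 on their brightest probe set, or the smallest p of a class without one. Catalytic, immunoproteasome and activator genes were always named, with up to 4 genes of each companion list by p. Other genes and probe sets were named after their values were seen. The script was tested on simulated data. Alternatives were other scalings, offsets, filters, variance priors and probe set choices, no block, array weights, and leaving out arrays. The array weights came out equal for both arrays of an experiment, so they weighted experiments and not single arrays.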

Additional observations from a re-analysis of the deposited data

How the results depend on the processing

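With 3 arrays a group, a log2 difference near the standard errors given cannot be resolved, and dim probe sets least. Larger differences can also fail to pass. In the simulated data 3.2% of planted log2 differences of 1 and 45% of those of 2 were called. The noise there was set for each array over all probe sets, so these shares are not those of bright probe sets alone. Over all probe sets, 177 were called with array weights, 5 without _x_at and _s_at probe sets and 33 to 215 with 1 experiment left out, against 0 in the main analysis. Of proteasome probe sets, 1 was called with array weights (PSMB2) and 0 under each other alternative. Without the replicate block 0 probe sets were called, and no call changed. With quantile normalization the median log2 fold change was 0.0071 for all members, -0.012 for the catalytic subunits and 0.046 for the lid. Array weights gave medians of -0.31 for the base non-ATPases, 0.41 for the immunoproteasome and 0.13 for the lid. Leaving out _x_at and _s_at probe sets changed the genes in a class. It gave -0.27 for the assembly chaperones, from 1 gene of 3 (PSMD5), and 0.59 for the base ATPases, from 3 of 5. The 0.59 is the value of the dimmer PSMC2 probe set (SE 0.44), where the brighter one gave 0.13 in the main fit. The same choice gave -0.88 for the base non-ATPases, from 2 of 3, and -0.26 for the structural beta subunits, from 3 of 4. These last values rest on probe sets of PSMD4 and PSMB1 that are under the filter and have the opposite sign to the genes' brighter ones. Over tested probe sets alone they were -0.36, from 1 gene, and -0.039, from 2. The mean over all probe sets of a gene gave 0.36 for the base ATPases and -0.23 for the structural beta subunits. The former takes in the dimmer PSMC2 probe set. The latter also takes in the PSMB1 probe set under the filter, which lowers the mean of that gene. With 1 experiment left out, medians ranged from -0.31 to 0.24 for the base non-ATPases, -0.072 to 0.44 for the immunoproteasome and 0.11 to 0.24 for the lid. Without only the siLuc array of experiment 1, and so without the block, the base non-ATPases stood at -0.35. On its brightest probe set, the log2 fold change kept its sign under every alternative that gave a value in 18 of the 36 member genes and turned in 18. The log2 fold change turned for PSMB10 (-0.0023 with offset 64, and -0.33 to 0.61 with 1 experiment left out) and PSMB6 (-0.17 with quantile normalization, and -0.16 to 0.18). It turned for PSMB7 (-0.012 with quantile normalization, -0.095 without the siLuc array of experiment 1, and -0.024 to 0.26) and PSMB9 (0.027 with median centring). It turned for PSME1 (-0.14 without that siLuc array, and -0.070 to 0.52) and PSME3 (-0.048 with array weights, -0.011 without that siLuc array, and -0.087 to 0.55). The other 12 ranged over their alternatives from -0.074 to 0.20 (PSMA3), -0.20 to 0.21 (PSMA4), -0.033 to 0.21 (PSMA5), -0.30 to 0.033 (PSMA7), -0.23 to 0.056 (PSMB2) and -0.10 to 0.16 (PSMC1). They ranged from -0.024 to 0.24 (PSMC2), -0.11 to 0.24 (PSMC4), -0.35 to 0.24 (PSMD1), -0.39 to 0.038 (PSMD3), -0.034 to 0.18 (PSMD11) and -0.00047 to 0.25 (PSMD14). The cause of these changes was not tested.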
